A study of Mus musculus with 6 samples.

Results

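The array carried 3457 probes for exons of long intergenic non-coding RNAs (lincRNAs), among 59709 non-control probes in all. They were recognised by LINCRNAEXON in the probe name, which also holds an exon number and, at its end, a plus or a minus for the strand. They covered 1729 exon numbers, of which 1728 had a probe for each strand and 1 had a minus probe alone. RNA came from the liver of C57Bl/6 mice kept to an age of 12 months. The Apcfl/fl group (3 arrays) was liver with hepatocellular carcinoma (HCC) from mice homozygous for a hypomorphic, loxP-flanked allele of Apc. The Apc+/+ group (3 arrays) was normal liver without HCC. The labels call the tumours Wnt/β-catenin dependent and give tissue as the only description of cell content, so that each array averaged over tumour cells and all other cells of the piece. With such bulk tissue, fewer cells of a type and less RNA per cell cannot be told apart.

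LincRNAs are long transcripts without a protein product whose genes lie apart from protein-coding genes. Many are spliced and polyadenylated like mRNAs, and as a class they are known for low levels and for expression in few tissues. An exon is transcribed from one strand of the DNA, but many loci also give antisense transcripts, and a pair of probes, one per strand, asks which strand the RNA came from. Here it cannot be said from the files which strand is the annotated one, nor whether the sign in the name stands for the probe or for its target. Exons are therefore given by number and sign only. Probe sequences and genome positions were not used here.

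The arrays were not alike in quality. Apc+/+ replicate 2 stood apart, with 50.8% of all probes flagged by the scanner software as well above background, where the other 5 arrays had 70.7% to 82.8%. A mean chi-square of 0.774 over 29685 probes put the difference between Apcfl/fl replicates 1 and 2 under the technical noise, and they were counted as 1 sample. Over the 1470 lincRNA exon probes that were well above background on every array the same pair had a mean chi-square of 1.05, against 7.68 between replicates 1 and 3. Apc+/+ replicates 2 and 3 were the next closest pair, with a mean chi-square of 1.99 over the 29685 probes. The other Apc+/+ pairs had 6.37 and 7.56. Replicates 2 and 3 of Apc+/+ were kept apart, and averaging them is among the alternatives below. Each comparison below therefore has 2 Apcfl/fl samples and 3 Apc+/+ samples unless 6 arrays are named. The study's methods give liver RNA of mice with an n of 3 per group, but the labels tie no array to an animal, and p-values measure only the spread between these samples. Of the cell type markers, names were at hand for 3 of 7 hepatocyte, 2 of 5 leukocyte, 2 of 4 proliferating cell, 1 of 5 stellate cell and fibroblast and 0 of 4 cholangiocyte genes. The summed hepatocyte signal lay between 14.45 and 15.53 (log2) on the Apcfl/fl arrays and between 16.59 and 17.36 on the Apc+/+ arrays. The summed signal of the proliferating cell genes lay between 12.15 and 12.46 against 7.99 and 8.32, that of the leukocyte genes between 11.49 and 13.09 against 10.32 and 10.96, and that of the stellate cell gene Lrat between 4.64 and 6.09 against 6.79 and 7.13. No named marker was at 0. Most names were at hand because the authors' table of called probes lists them, so that the direction of these markers is not independent evidence. The part of these shifts in the results below was not tested.

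Of the 3457 probes, 4 lost their only spot to quality flags and 3453 were read. A probe was called detected, and was tested between the groups, when at least 3 of the 6 arrays had it well above background. This held for 2494 lincRNA exon probes, or 72.2%, against 76.5% of all probes on the array. On every array 1470 were well above background, 42.6% against 49.8% of all probes, and 523 were so on none, 15.1% against 12.1%. Of the probes of transcribed-ultraconserved regions (T-UCRs), which also come as a pair per region, 52.2% were detected. Other lincRNA probes of the array were detected at 57.5% when named for mouse and at 55.6% when named for human transcripts. Of the 20 negative-control probes, which are made to match no transcript, 7 (35%) met the same rule, so that the detection call alone does not separate a transcript from non-specific signal.

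The detected share was larger for the minus strand than for the plus strand. Of 1727 minus probes 1305 (75.6%) were detected, and of 1726 plus probes 1189 (68.9%). The minus share was the higher one on each of the 6 arrays. In HCC it was 68.0%, 74.5% and 72.4%, where the plus share was 62.1%, 68.4% and 66.5%. In normal liver it was 80.1%, 45.9% and 82.0%, where the plus share was 74.4%, 41.5% and 77.6%. The gap between the strands was smaller than the gap between Apc+/+ replicate 2 and the other arrays.

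Few lincRNA exon probes were detected in 1 group alone. There were 3 (0.0869%) that were well above background on all Apcfl/fl arrays and on no Apc+/+ array, against 0.169% of all probes. The reverse held for 3 (0.0869%), against 0.0989% of all probes.

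The signals were low. After normalisation the mean of the 2 group means, called the level here (log2), had a median of 4.98 over the 3453 probes and of 5.97 over the detected ones. For all probes of the array these medians were 5.53 and 6.44. The brightest negative-control probe had a level of 5.50, and 1466 of the 2494 detected lincRNA exon probes (58.8%) lay above it, against 65.9% of all detected probes. The strands differed little in level once detected, with a median of 6.01 for plus and 5.95 for minus probes. The per-array median of the detected lincRNA exon probes ranged from 5.91 to 6.04, a narrow range that the quantile normalisation over all probes largely sets.

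A few exons were nevertheless among the brightest features of the array. MM9LINCRNAEXON10151+ had the highest level, with 17.93, 17.91 and 17.68 in HCC and 17.72, 17.71 and 17.84 in normal liver. The groups overlapped in this probe, and its change of 0.04 ± 0.19 (SE) did not pass the test (adjusted p = 0.930, limma). The next 4 were MM9LINCRNAEXON10608-, MM9LINCRNAEXON10315-, MM9LINCRNAEXON11341+ and MM9LINCRNAEXON12032-, with levels between 17.53 and 17.72. None of the 5 brightest probes passed a threshold, and their changes ran from -0.10 to 0.44.

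Both strands could be compared in 1724 exons. In 912 of them (52.9%) both strands were detected, in 667 (38.7%) only 1 was, and in 145 (8.41%) neither was. The single strand was minus in 391 exons and plus in 276. For T-UCRs, the share with both strands detected was 28.3% of 480 pairs and that with 1 strand 47.9%. Detection of one strand went only weakly with that of the other, since the plus probe was detected in 70.0% of exons whose minus probe was and in 65.6% of the others. A probe alone in being detected was about as bright as one with a detected partner, with median levels of 5.89 and 6.04 for plus probes and of 6.02 and 5.91 for minus probes.

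Where both strands were detected, their probes often differed widely and stably in signal. Probes differ in how well they bind, so that a difference in signal between strands need not be a difference in RNA. Over the 912 exons the median size of the strand difference was 2.06 (log2, interquartile range 0.97 to 3.65), and the median standard deviation of that difference within a group was 0.52. The plus probe was the brighter in 467 exons and the minus probe in 445. The same strand was brighter on all 6 arrays in 718 exons (78.7%). In 504 exons it was at least 2-fold brighter on every array, of which 262 were plus and 242 minus, and in 121 it was at least 16-fold brighter on every array, with 75 plus and 46 minus. Across these 912 exons the levels of the strands had a Pearson correlation of -0.03 and a Spearman correlation of -0.05. The exons share the same arrays and are not independent, and the values only describe them.

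The 5 exons with the largest strand differences were 10608, 11341, 11400, 12032 and 11822, and 3 of them hold one of the brightest probes. In exon 10608 the minus probe had 17.91, 17.88 and 17.99 in HCC and 17.49, 17.49 and 17.52 in normal liver, and the plus probe lay between 6.41 and 6.77 on all 6. In exon 11341 the bright strand was the other one, with 17.24 to 17.77 for plus and 6.79 to 7.29 for minus. In exon 11400 the plus probe lay between 15.69 and 17.33 and the minus probe between 4.03 and 6.01. These differences exceeded the spread between arrays in every case, which largely follows from choosing the exons by the size of the difference.

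Between the groups, few lincRNA exon probes passed an adjusted test with 5 samples, which does not show that the others were unchanged. With an adjusted p below 0.05 and a change of at least 2-fold (limma, Benjamini-Hochberg over all 45640 tested probes), 19 of 2494 passed, or 0.762%, where the share over all tested probes was 1.92%. Of these 11 were upregulated and 8 downregulated in Apcfl/fl HCC. The minus strand gave 13 of them (7 up, 6 down) and the plus strand 6 (4 up, 2 down). With 6 arrays taken as 6 samples 113 passed (35 up, 78 down), or 4.53%, against 7.54% of all tested probes. By limma 0 were left when Apc+/+ replicate 1, 2 or 3 was left out, which leaves 2 samples against 2, with 392, 218 and 221 probes then at an unadjusted p under 0.05. The changes of the 19 probes were then between 0.890 and 1.11 times their size with all samples. As the 19 were chosen by their change in these same samples, this range is not a test. Without Apcfl/fl replicate 3 there were 8, of which 3 were among the 19, and without the other 2 Apcfl/fl arrays there were 0 by limma, with 318 at an unadjusted p under 0.05. On the slide, Apc+/+ replicates 2 and 3 were in row 2 and the remaining arrays in row 1. A fit that blocked on the row, which compares within row 1 alone, left 0 by limma and 215 had an unadjusted p under 0.05.

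At the threshold of the study's methods, an unadjusted p of at most 0.05 with at least 2-fold, 179 lincRNA exon probes (7.18%) passed against 11.2% of all tested probes. Downregulated probes were the larger part, with 118 (4.73%, against 5.85% of all tested probes), and 61 were upregulated (2.45%, against 5.36%). On the plus strand 26 were upregulated and 45 downregulated, and on the minus strand 35 and 73. With 6 arrays the counts were 75 up and 132 down, 8.30% together, where all tested probes gave 6.79% up, 6.63% down and 13.4% together. The groups' arrays did not overlap in 746 probes (29.9%, against 33.8%), of which 343 were higher (13.8%, against 17.4%) and 403 lower (16.2%, against 16.4%) in HCC. The median change over the 2494 probes was 0.04 (log2), against 0.06 for all tested probes, and with the slide row as a block the medians were -0.05 and -0.02.

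All 19 probes past the adjusted threshold had the arrays of the groups apart, which largely follows from how they were called and is not further support. Of these probes, 10 were well above background on all 6 arrays. In 9 of the 19 the lower group's mean fell short of the brightest negative-control probe, and the size of those changes is uncertain. Their adjusted p ran from 0.0194 to 0.0488 with 5 samples and from 0.00190 to 0.0114 with 6 arrays.

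The fall with the lowest p was in MM9LINCRNAEXON11066-. It had 5.92, 6.20 and 6.77 in HCC and 10.28, 10.76 and 10.97 in normal liver. The groups were far apart, and the change was -4.26 ± 0.34 (SE, adjusted p = 0.0194 by limma). MM9LINCRNAEXON11067- followed with 4.28, 2.94 and 4.18 against 7.20, 8.04 and 7.82, a change of -3.79 ± 0.35 (adjusted p = 0.0214 by limma). On its Apcfl/fl arrays this probe lay below the brightest negative-control probe.

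MM9LINCRNAEXON11093+ was not well above background on any Apcfl/fl array, with 1.65, 3.08 and 2.23, and had 5.43, 7.09 and 6.55 on the Apc+/+ arrays. Measured against the lowest signal still called well above background, it was at least 6.09-fold lower in HCC on the scale of the processed signals (adjusted p = 0.0394 by limma). This bound takes, per array, the higher of that lowest signal and the probe's own, which is a dimmer floor than the brightest negative-control probe. With normexp background correction the change was -1.12 (log2), smaller than that bound, and the call was lost (adjusted p = 0.0746 by limma). MM9LINCRNAEXON10903- fell from 9.67, 10.14 and 10.35 on the Apc+/+ arrays to 7.32, 7.30 and 7.41 on the Apcfl/fl arrays, a change of -2.69 ± 0.27 (SE). MM9LINCRNAEXON11987- had 9.71, 9.68 and 9.70 on the Apc+/+ arrays and 6.56, 6.47 and 7.68 on the Apcfl/fl arrays. In this probe Apcfl/fl replicate 3 lay above the other 2, and still below every Apc+/+ array.

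The remaining falls were in MM9LINCRNAEXON11482-, MM9LINCRNAEXON10620- and MM9LINCRNAEXON11316+, with changes of -2.69, -2.36 and -1.64. MM9LINCRNAEXON11482- had 4.11, 3.69 and 3.54 in HCC and 6.26, 6.70 and 6.28 in normal liver. In HCC this probe was below the brightest negative-control probe on each array. MM9LINCRNAEXON11316+ was the brightest of the 19, with 11.77, 11.62 and 11.39 in HCC and 13.04, 13.31 and 13.19 in normal liver. Its signal was far above the negative controls on every array, and its minus probe, at 1.53 to 3.62, was well above background on none.

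Among the rises, MM9LINCRNAEXON10197- was well above background on all Apcfl/fl arrays, with 7.19, 7.36 and 6.28, and on no Apc+/+ array, with 1.53, 2.86 and 1.53. By the same bound it was at least 7.66-fold higher in HCC on the scale of the processed signals (adjusted p = 0.0339 by limma). With normexp background correction the change was 1.497 (log2), below that bound, so that the bound does not hold under every background correction. MM9LINCRNAEXON11349+ had 9.75, 9.87 and 10.05 in HCC and 4.20, 5.76 and 5.73 in normal liver, a change of 4.70 ± 0.54 (SE). Its Apc+/+ mean of 5.23 ± 0.89 (SD, n = 3) lay below the brightest negative-control probe.

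MM9LINCRNAEXON10517+ and MM9LINCRNAEXON10518+, whose exon numbers are consecutive, both rose. The first had 8.58, 8.54 and 9.88 in HCC and 6.13, 5.80 and 6.09 in normal liver. The second had 6.38, 6.50 and 6.14 against 2.44, 3.22 and 3.34. Their changes were 3.21 ± 0.43 and 3.30 ± 0.34 (SE), and neither had a detected minus probe. In normal liver 1 array had MM9LINCRNAEXON10518+ well above background and all 3 had it below the brightest negative-control probe, and with normexp background correction its change was 1.01. MM9LINCRNAEXON11480- rose with 8.48, 8.45 and 8.13 against 5.30, 5.41 and 4.75, a change of 3.14 ± 0.29 (SE). MM9LINCRNAEXON10582+ rose with 10.32, 10.34 and 9.94 against 7.81, 7.13 and 7.06, a change of 2.80 ± 0.32 (SE). Both stayed well apart between the groups, and the second was above the negative controls in each. The other 5 rises, in MM9LINCRNAEXON10496-, MM9LINCRNAEXON11015-, MM9LINCRNAEXON11772-, MM9LINCRNAEXON11256- and MM9LINCRNAEXON12046-, ran from 1.78 to 2.22. MM9LINCRNAEXON10496- had 7.81, 7.68 and 8.02 in HCC and 5.97, 5.40 and 5.60 in normal liver. MM9LINCRNAEXON11015- had 6.43, 6.64 and 6.26 against 4.09, 4.56 and 4.29. Its Apc+/+ signals were within the range of the negative controls. MM9LINCRNAEXON11772- had 9.89, 9.82 and 10.50 against 8.14, 8.19 and 8.29, and MM9LINCRNAEXON11256- had 8.16, 8.10 and 8.15 against 5.85, 6.31 and 6.50. These last 2 were above the brightest negative-control probe on every array.

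Most opposite strands of called exons were not detected or stayed within 2-fold. Of the 19 exons, 13 had an opposite probe that was not detected, with levels of at most 3.41. The opposite probes of the other 6 changed by -0.78 to 1.92 and none passed the adjusted threshold. They moved the same way as the called strand in 3 exons and the other way in 3. In exon 10620, for example, the plus probe stayed between 5.35 and 5.97 on all arrays while the minus probe lay between 3.58 and 4.61 in HCC and between 6.38 and 6.67 in normal liver. In HCC that minus probe was below the brightest negative-control probe on each array. With normexp background correction its change was -0.96, against -2.36. Of the 179 probes past the methods' threshold, 117 had a detected opposite probe, of which 70 moved the same way and 47 the other way, and 103 stayed within 2-fold. The median size of the change was 1.35 on the called strand and 0.42 on the opposite one. As the called strand was chosen by its change, these medians are not a test. Over all 912 exons with both strands detected, 493 (54.1%) had changes of the same sign, and the changes had a Pearson correlation of 0.13 and a Spearman correlation of 0.11.

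In 5 exons both strands passed the methods' threshold. In exons 12046, 12047 and 10823 both rose. The minus probe of exon 12046, past the adjusted threshold, had 7.83, 7.92 and 7.69 in HCC and 5.91, 5.95 and 6.15 in normal liver, and its plus probe had 6.48, 6.37 and 5.60 against 5.09, 4.04 and 3.14. The plus probe of exon 12047 lay between 11.15 and 11.52 in HCC and between 9.81 and 10.09 in normal liver, with a change of 1.37 ± 0.22 (SE, adjusted p = 0.0571 by limma). The groups were apart on both strands of these exons. In exon 10823 the plus probe lay between 9.43 and 10.24 in HCC and between 7.73 and 8.58 in normal liver, and the minus probe between 4.97 and 6.24 and between 2.73 and 4.24. MM9LINCRNAEXON12046+, MM9LINCRNAEXON12047- and MM9LINCRNAEXON10823- had Apc+/+ means of 4.09, 4.89 and 3.53, below the brightest negative-control probe. With normexp background correction their changes were 0.63, 0.46 and 0.57, against 1.92, 1.06 and 2.05. The size of these 3 rises is therefore uncertain. In exons 10349 and 11922 the strands moved in opposite directions. In exon 10349 the plus probe had 6.34, 6.65 and 5.62 in HCC and 7.07, 7.73 and 7.44 in normal liver, and the minus probe 7.84, 7.84 and 9.15 against 7.12, 7.44 and 7.40. The groups did not overlap on either strand of this exon. Without Apcfl/fl replicate 3 the changes were -0.92 for the plus and 0.52 for the minus probe, against -1.35 and 1.18 with all samples. In exon 11922 the minus probe had 6.87, 6.81 and 6.86 on the Apcfl/fl arrays and was well above background on no Apc+/+ array, with 1.53, 4.24 and 1.61, so that by the bound used above it was at least 8.07-fold higher in HCC on the scale of the processed signals (adjusted p = 0.0874 by limma), while with normexp background correction the change was 1.37 (log2), below that bound. Its plus probe had 4.44, 3.29 and 3.83 against 4.53, 4.69 and 5.40. Every one of these values was below the level of the brightest negative-control probe, 5.50. With normexp background correction the change of the plus probe was -0.25, against -1.02, so that its fall is uncertain.

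Some changed probes had consecutive exon numbers on the same strand. Whether such exons belong to 1 transcript is not given in the files. Of the 179 probes past the methods' threshold, 36 (20.1%) lay in 17 such runs, and 13 of the runs went in 1 direction. Pairs of probes on 1 strand that both passed numbered 19 of 1609 at consecutive numbers. At number gaps of 2, 3, 5, 10 and 50 there were 11, 13, 8, 14 and 4 of 1567, 1534, 1525, 1479 and 1433 pairs. These runs were picked after the values had been seen. The longest held 3 exons. In MM9LINCRNAEXON11065- the signal was 4.33, 4.33 and 7.92 in HCC and 12.09, 12.31 and 12.49 in normal liver, and the probes of the next exon numbers, 11066- and 11067-, are among the 19 given above. The first had the widest spread within HCC, with a change of -6.17 ± 1.05 (SE) and an adjusted p of 0.0627 (limma). MM9LINCRNAEXON10822+, MM9LINCRNAEXON10823+ and MM9LINCRNAEXON10824+ had changes of 1.35, 1.77 and 1.76, and none passed the adjusted threshold (adjusted p between 0.0990 and 0.250, limma). In all 3 the Apc+/+ replicate 1 was the highest of its group, with 6.53, 8.58 and 6.81, and Apcfl/fl replicate 3 the lowest of its own, with 6.68, 9.43 and 7.61. Over 1609 pairs of probes with consecutive numbers on 1 strand the changes had a Pearson correlation of 0.17 and a Spearman correlation of 0.10. Over 1567 pairs whose numbers differ by 2 both were 0.04. These correlations describe probes of the same arrays. The brighter strand was the same in 49.0% of 441 pairs of consecutive exons.

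The change between the groups varied with the level. In the 161 lincRNA exon probes of level 10 and above the median change was -0.29 (interquartile range -0.76 to 0.17), and 111 of them were lower in HCC. Over the 6925 probes of the array at that level the median was -0.03. Relative to each probe's Apc+/+ mean, the Apcfl/fl arrays had medians of -0.26, -0.29 and -0.25. The Apc+/+ arrays, which make up that mean and so lie near it, had -0.08, 0.05 and 0.03. These medians did not overlap between the groups, but neither did those of all 6925 probes at that level. Over all of those probes HCC had -0.041, -0.041 and -0.008, where normal liver had 0.005, -0.006 and -0.004. The lack of overlap is therefore not particular to the lincRNA exon probes, and the Apc+/+ reference favours it. Among the lincRNA exon medians, Apc+/+ replicate 1 lay nearest to HCC. Within row 1 of the slide, against that replicate alone, the median was -0.14. At the methods' threshold 21 of the 161 were lower (13.0%, against 9.76% of all probes at that level) and 7 higher (4.35%, against 7.34%). By strand the medians were -0.33 over 82 plus probes and -0.17 over 79 minus probes. Under scaling of each array to its 75th percentile the median became -0.07 and that of all probes at that level 0.22.

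At lower levels the median change of the lincRNA exon probes was close to that of the array as a whole. From level 4 up to level 8 their median change lay between -0.03 and 0.06 and that of all tested probes between 0.01 and 0.10. From 8 to 10 the medians were -0.09 and -0.04, with 29 probes lower (9.80%, against 8.99% of all tested probes in that bin) and 8 higher (2.70%, against 8.12%) at the methods' threshold. Below level 4 the medians were 0.47 and 0.48. In that bin Apc+/+ replicate 2 had a median of -0.91 relative to the probes' Apc+/+ means. Apc+/+ replicates 1 and 3 had 0.48 and 0.28 and the Apcfl/fl arrays 0.47, 0.53 and 0.49. Of the 283 probes there, 3 passed the methods' threshold (1.06%, against 5.35% of all tested probes in that bin). The median standard deviation over the Apc+/+ arrays fell from 0.93 below level 4 to 0.16 at level 10 and above.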

How the data were processed

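Per the labels, rRNA was removed and the rest copied by random priming into cRNA carrying Cy3. The study's methods name the Arraystar mouse LncRNA array. The authors extracted the scans with Agilent Feature Extraction 11.0.1.1, per the submitters' processing notes. The deposited scanner files hold 62513 spots each, with a background-subtracted processed intensity that is not normalised between arrays, and flags (other values) for background, saturation and outliers. A deposited table of the authors holds quantile normalised log2 values and their fold changes and p-values for the probes they called, and only its identifiers and names were used, for the markers. The build named in the file headers is mm9.

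Control spots (1319), the 1200 spots of 20 negative-control probes and flagged spots were left out, which removed 78 probes, 4 of them lincRNA exon probes. No lincRNA exon spot was saturated. Processed intensities were taken to log2, averaged per probe and quantile normalised over 59631 probes. Groups were compared with limma 3.58.1 in R 4.3.3, through lmFit and eBayes with 2-sided tests and no covariate. Bounds compare means of normalised log2 values. The number of arrays limits the precision. The fitting steps were tested on simulated data.

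The members and lists were chosen with earlier results of these data known. Probes named are those past the adjusted threshold with their other strand, the 5 brightest, the 5 exons with the largest strand difference, those with both strands past the methods' threshold, and the markers. The runs of consecutive numbers were added after their values were seen. Alternatives were normexp background correction (offset 50, on median signals because mean signals are not used here), scaling to the 75th percentile, other filters, the slide row or replicate number as a block, 6 arrays, other averaging, eBayes with trend and robust, the methods' t-test, and leaving out each array. No probe named for Apc was at hand, and the targeted gene is not reported here.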

Additional observations from a re-analysis of the deposited data

How the results depend on the processing

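The 19 probes past the adjusted threshold kept their direction under every alternative run. This largely follows from the arrays of the groups being apart in all 19, and is not further support. In 176 of 346 comparisons these probes no longer passed. Their size did not hold under normexp, where 11 of the 19 changes were smaller by over 1.5 times, such as MM9LINCRNAEXON10197- (4.80 to 1.497), MM9LINCRNAEXON10518+ (3.30 to 1.01), MM9LINCRNAEXON11093+ (-4.06 to -1.12) and MM9LINCRNAEXON11067- (-3.79 to -1.72). By limma the count became 113 with 6 arrays as 6 samples (35 up, 78 down), 52 with normexp background correction (21 up, 31 down, 15 of the 19 among them), 63 among probes well above background on all 6 arrays (18 up, 45 down), 68 among probes above the brightest negative-control probe (22 up, 46 down), 67 with trend and robust settings of eBayes (22 up, 45 down) and 4 without a filter on dim probes. Over all probes tested the counts were 877 with 5 samples and, in the same order, 3440, 1651, 1966, 2116, 1900 and 277. It was 0 by limma with Apc+/+ replicates 2 and 3 averaged as well (243 at an unadjusted p under 0.05), 0 when the slide row was blocked (215) and 0 with Apcfl/fl replicates 1 and 2 left out together (318), an alternative chosen after seeing the data. It was 0 by the methods' t-test after Benjamini-Hochberg (339 at an unadjusted p under 0.05). Leaving out 1 array gave 0 to 24. The count at the methods' threshold, 179, became 89 with normexp, and 150 to 229 with 1 array left out. The cause was not tested for any of these.

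The median change of 0.04 was below the spread between samples and turned to -0.051 when the row was blocked, -0.027 without a filter, -0.054 among probes well above background on all 6 arrays and -0.028 among those above the brightest negative-control probe, and ran from -0.0018 to 0.063 with 1 array left out. At level 10 and above the median of -0.29 became -0.21 with Apc+/+ replicates 2 and 3 averaged, -0.14 with the row block, -0.071 with 75th percentile scaling and -0.44 with levels from the Apc+/+ samples alone, and ran from -0.40 to -0.20 with 1 array left out. The number detected, 2494, became 1470 when all 6 arrays were required and 1466, in an alternative chosen after seeing the data, above the brightest negative-control probe. It was 2357 to 2491 with 1 array left out. The 667 exons detected on 1 strand stayed within 666 to 851.

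Same-numbered arrays of the groups had correlations of 0.06, -0.07 and 0.04 in their deviations from the group means. With 3 arrays per group these deviations depend on each other, so the values do not settle whether the replicate numbers pair the arrays. With the replicate number as a block over 6 arrays, 28 probes passed the adjusted threshold (14 up, 14 down), 18 of them among the 19, and 226 passed the methods' threshold, where all tested probes gave 1075 and 6308. Small samples and non-specific signal limit dim probes most, since 7 of the 20 negative-control probes were detected.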

Other observations

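In 16 of the 912 exons with both strands detected, the brighter strand was one strand on every Apcfl/fl array and the other on every Apc+/+ array. In 0 of them was the difference at least 2-fold on all arrays of both groups. These exons were picked by their values and the turn was not tested. In exon 10620 the plus probe exceeded the minus probe by 1.99, 2.08 and 1.03 (log2) in HCC, where the differences were -0.44, -1.31 and -0.91 in normal liver. On every Apcfl/fl array the minus probe of exon 10620 lay below the level of the brightest negative-control probe. In exon 11922 the plus minus minus difference was -2.43, -3.53 and -3.03 in HCC and 3.00, 0.45 and 3.79 in normal liver. The minus probe of that exon was well above background on no Apc+/+ array. Its plus probe lay below the level of the brightest negative-control probe on every array.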
